A study of Mus musculus with 2 samples.

Results

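The vacuolar H+-ATPase and the mTORC1 platform of the lysosome were described through 35 genes, chosen by gene symbol in the GENCODE M21 annotation, of 55450 annotated genes common to the tables and 21938 nuclear protein-coding genes. They comprise 11 genes of the V1 sector, 10 of the V0 sector, 2 accessory subunits, 5 of Ragulator, 4 Rag GTPases and 3 of mTORC1. All 35 symbols were found in the gene table and in both transcript tables of both libraries. RNA of the chromatin fraction, which holds transcripts still attached to their template, was sequenced after ribosomal RNA depletion from bone marrow-derived macrophages of the C57BL/6J mouse strain. Both libraries belong to 1 group, the 0-minute point of stimulation with lipid A at 100 ng/ml, an endotoxin component that activates Toll-like receptor 4. Replicate 1 was made from 250 ng and replicate 2 from 500 ng of RNA. The 2 biological replicates carry the same donor entry, and whether they came from separate animals is not stated, so the spread between them may be technical. Sex and age were not collected, and no untreated or treated group stands against this one. Levels below are therefore descriptions with no test and no p-value.

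The vacuolar H+-ATPase is a rotary pump that acidifies lysosomes and phagosomes. Its cytosolic V1 sector hydrolyses ATP and turns a stalk, and its membrane-bound V0 sector carries protons across the membrane. Several subunits are encoded by paralogs with their own tissue distribution, and the paralog of the large V0 subunit a directs the pump to particular membranes. On the lysosome, the pump binds Ragulator, a scaffold that anchors the Rag GTPases. When amino acids are plentiful the Rag GTPases hold mTORC1, the growth-controlling kinase complex of mTOR, Raptor and mLST8, at the lysosomal surface.

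Depth was 10921726 and 14152345 expected counts on annotated genes in replicates 1 and 2, and a count of 0 allows up to 0.275 and 0.212 RPM (counts scaled to the library total), by counting error alone. The counts of the replicates differed by more than counting error alone, with a chi-square of 5.82 per degree of freedom over 11424 genes. Macrophage markers were all detected, 8 of 8, with a summed level of 721 and 609 TPM (scaled transcript abundance, a level per transcript length). Of the markers of other cell types, 1 of 8 osteoclast, 2 of 6 erythroid, 1 of 6 dendritic cell and 1 of 4 endothelial genes were detected. None of the 6 neutrophil, 6 T cell, 5 B cell, 4 mast cell, 5 stromal or 6 epithelial marker genes was. A gene is called detected here at 1 TPM or more in both replicates of the gene table. In the rescaled second transcript table, 13 rather than 5 of the 56 markers of other cell types passed 1 TPM. Among the 8 added were Cd3d, a T cell gene, at 8.64 and 7.15 TPM, and Pecam1, an endothelial gene, at 5.06 and 4.40 TPM. The part of such cells in the levels below was not tested. In such bulk samples, fewer cells of a type and less RNA per cell cannot be told apart.

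Tcirg1, which encodes the lysosomal a3 paralog of the proton-conducting V0 subunit a, was the most abundant member by a wide margin. It lies on chromosome 19 from 3896050 to 3907133 (mm10, minus strand) and had 14047 and 18056 expected counts, or 983 and 791 TPM, in replicates 1 and 2. Its mean of 887 ± 136 TPM (SD, n = 2) ranked 3 among 21938 nuclear protein-coding genes and made up 40.2 ± 2.14% of the TPM of the 23 V-ATPase genes. Next came Atp6v0a1 at 299 ± 41.1 TPM, Atp6v1b2 at 221 ± 43.0 TPM and Atp6v0b at 190.5 ± 5.29 TPM, in ranks 53, 108 and 130. The ranges of the replicates separated Tcirg1 from all other members, while those of Atp6v0b (187 to 194 TPM) and Atp6v1b2 (190.5 to 251 TPM) overlapped.

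Sequence of the most abundant gene is shown first, because most of its TPM lay on transcripts that the annotation classes as retained-intron. Transcripts of this class are annotated as holding intron sequence. Below are 3 introns of the spliced transcript Tcirg1-201, each of at most 300 bases, that lie whole within Tcirg1-203, Tcirg1-207 and Tcirg1-209, and 1 of Atp6v1b2-201 that lies whole within Atp6v1b2-202. All lie between coding exons, are given 5′ to 3′ on the strand of the gene from the GENCODE M21 transcript sequences, and carry the splice donor and acceptor bases in capitals. They are intron 5 at chr19:3903173-3903339 (167 bases), intron 12 at chr19:3898639-3898717 (79 bases) and intron 14 at chr19:3897682-3897757 (76 bases) of Tcirg1, on the minus strand, and intron 6 at chr8:69102591-69102761 (171 bases) of Atp6v1b2, on the plus strand.
Tcirg1 intron 5: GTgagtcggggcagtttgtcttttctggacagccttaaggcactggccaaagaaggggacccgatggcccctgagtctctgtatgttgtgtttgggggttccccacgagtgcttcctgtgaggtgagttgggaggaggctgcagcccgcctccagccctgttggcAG
Tcirg1 intron 12: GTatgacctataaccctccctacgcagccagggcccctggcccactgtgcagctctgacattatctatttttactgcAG
Tcirg1 intron 14: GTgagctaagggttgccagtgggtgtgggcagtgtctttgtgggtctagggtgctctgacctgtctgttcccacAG
Atp6v1b2 intron 6: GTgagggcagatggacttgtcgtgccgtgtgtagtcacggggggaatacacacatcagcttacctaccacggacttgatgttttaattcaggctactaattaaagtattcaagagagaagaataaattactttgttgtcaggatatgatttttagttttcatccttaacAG

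Tcirg1-203, a transcript of 8 exons and 1066 bases, had 242 and 202 TPM in the first transcript table in replicates 1 and 2. The coding Tcirg1-201, of 20 exons and 2688 bases, had 203 and 187 TPM. Tcirg1-207 followed with 152 and 133 TPM. The ranges of Tcirg1-203 and Tcirg1-201 just overlap, but Tcirg1-203 was the higher in each library, and Tcirg1-207 lay below both. In the second transcript table, before rescaling, Tcirg1-203 was also the higher, at 131 and 173 TPM against 64.9 and 98.5 TPM. The coding transcript carried more reads, with 5144 and 7082 expected counts against 2073 and 2579 for Tcirg1-203, and TPM divides such counts by length. Retained-intron transcripts held 69.5% and 66.6% of the TPM of Tcirg1 in replicates 1 and 2, while by expected counts they held 46.1% and 44.0% and its protein-coding transcripts 52.8% and 55.0%. The protein-coding transcripts alone still gave Tcirg1 292 and 258 TPM, the highest such level among the members. Of 36 retained-intron transcripts of members with a mean of at least 5 TPM, 10 contain at least 1 whole intron of the gene's main coding transcript.

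**Figure D1:**
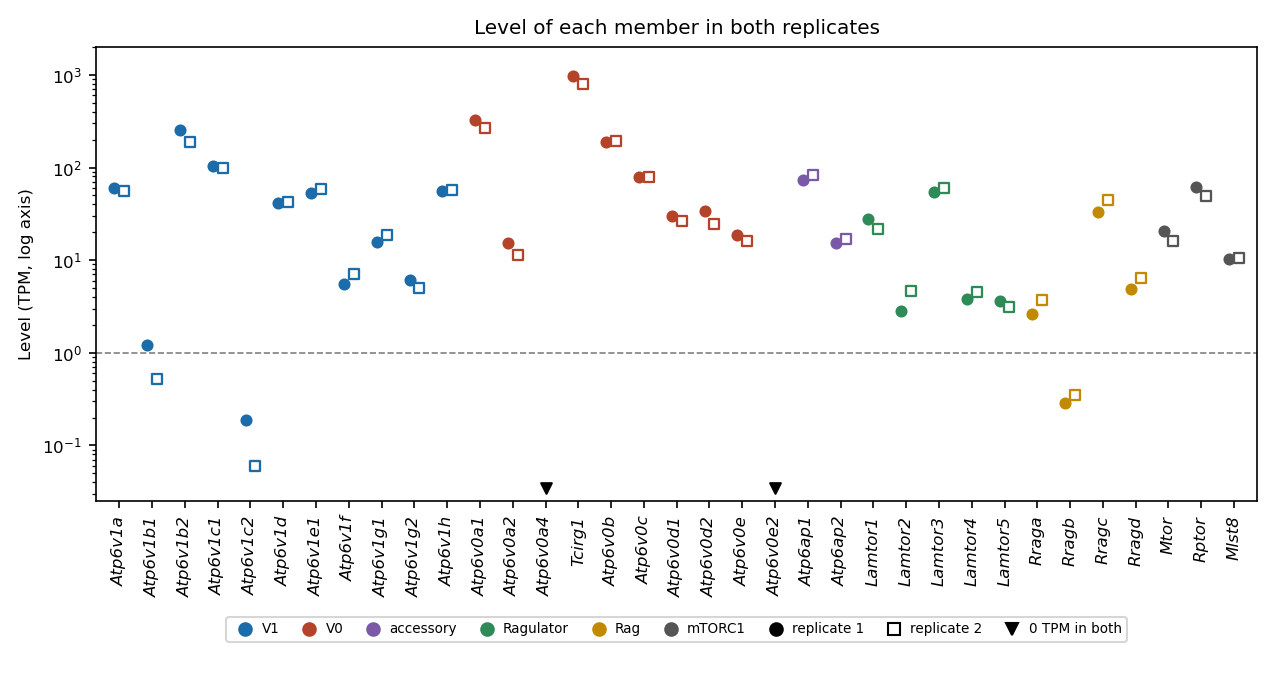
Level of each of the 35 members in TPM (log axis), with filled circles for replicate 1 and open squares for replicate 2, coloured by complex, and the dashed line at the detection level of 1 TPM. Tcirg1 lies highest at 983 and 791 TPM, and Atp6v0a4 and Atp6v0e2 are at 0 in both replicates.

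Of the 35 members, 30 were detected, where 46.9% of all nuclear protein-coding genes were. The median member level was 19.6 ± 1.28 TPM, and that of the 10279 detected nuclear protein-coding genes was 11.0 ± 0.332 TPM. Together the members held 0.956 ± 0.0446% of nuclear protein-coding TPM. The 5 members below the detection level were all paralogs of a more abundant member. They are Atp6v1b1, Atp6v1c2, Atp6v0a4, Atp6v0e2 and Rragb.

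In the V1 sector, subunits A and B form the ring that binds and hydrolyses ATP. Atp6v1a, the catalytic subunit A (chromosome 16, 44085402 to 44139705), had 59.5 and 55.1 TPM in replicates 1 and 2. RNA for subunit B came mostly from Atp6v1b2 (chromosome 8, 69088646 to 69113711), with 251 and 190.5 TPM. Atp6v1b1, the paralog known from kidney and inner ear, had 1.22 and 0.52 TPM from 14 and 7 counts. Atp6v1b2 thus took 99.6 ± 0.149% of the TPM of subunit B. RNA for subunit C, which clamps V1 onto V0, came mostly from Atp6v1c1 (chromosome 15, 38661933 to 38692446) at 103 and 98.0 TPM. That was 99.9 ± 0.0871% of the TPM of its family, against 2 counts and 1 count for Atp6v1c2. Over the gene table, protein-coding transcripts only, the second transcript table and expected counts, the lowest mean shares were 99.0% for Atp6v1b2 and 99.6% for Atp6v1c1.

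The stalk subunits of V1 spread widely. Atp6v1d, the central stalk subunit D, had 41.4 and 42.3 TPM, and Atp6v1f, the stalk subunit F, had 5.47 and 7.14 TPM from 27 and 52 counts. Atp6v1e1, the peripheral stalk subunit E, had 53.6 and 58.5 TPM, and Atp6v1h, the regulatory subunit H that restrains free V1, had 56.3 and 57.8 TPM. The partner of E in each stalk is subunit G. Atp6v1g1 had 15.6 and 18.7 TPM, and Atp6v1g2, the paralog known from brain, had 6.15 and 4.99 TPM, so that Atp6v1g1 took 75.4 ± 5.09% of subunit G. That share was 85.3% over protein-coding transcripts only and 58.9% in the second transcript table, so its size was not fixed by these data although Atp6v1g1 led in each. Atp6v1g2 overlaps Nfkbil1, shared reads with other genes and rested on 69.0 and 102 counts. Summed by subunit, the order of V1 levels was B, C, then A, H and E with overlapping ranges, then D, G and F. Subunit B stood 46.2-fold and 26.7-fold above F in replicates 1 and 2. Over protein-coding transcripts only, C stood highest, with a range overlapping that of B, and F lowest, the ratio was 7.83-fold and 4.81-fold, and G stood above H and D.

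In the V0 sector, the subunit a family was made mostly of Tcirg1 and Atp6v0a1. Tcirg1 took 74.1% and 73.8% of family TPM in replicates 1 and 2, Atp6v0a1 24.7% and 25.2%, Atp6v0a2 1.16% and 1.05%, and Atp6v0a4 none. The shares of the replicates were closer than the levels themselves, which were lower in replicate 2 for all 3 measured paralogs. Atp6v0a1 (chromosome 11, 101009452 to 101063719), the paralog known from synaptic vesicles, had 328 and 270.1 TPM. Atp6v0a2 (chromosome 5, 124628576 to 124724455), the paralog known from Golgi and endosomes, had 15.4 and 11.3 TPM. Its posterior mean TPM, a second estimate in the same table, was 83.1 and 68.6, the largest change by ratio between the estimates among detected members. Atp6v0a4 (chromosome 6, 38048483 to 38124586), known from the acid-secreting cells of the kidney, had no count in either replicate of the gene table, where all 6 epithelial markers were also at 0. The Tcirg1 share was 77.8% over protein-coding transcripts only, 70.4% in the second transcript table and 64.2% of expected counts, so Tcirg1 led on every scale.

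Subunit d, which couples the rotating ring to the stalk, was the family without a leading paralog in gene table TPM. Atp6v0d1, the ubiquitous form, had 29.7 and 26.6 TPM, and Atp6v0d2, the form known from osteoclasts and macrophages, had 33.6 and 24.4 TPM. The ranges overlap, and Atp6v0d2 took 53.1% of the family in replicate 1 and 47.8% in replicate 2. Over protein-coding transcripts only, Atp6v0d2 held 65.8% and 59.6%, since 41.1% and 37.8% of the Atp6v0d1 level lay on a retained-intron transcript and none is annotated for Atp6v0d2. Osteoclasts also use Tcirg1 and Atp6v0d2. The 8 osteoclast markers summed to 4.76 and 5.63 TPM, most of it Itgb3 at 3.43 and 3.47 TPM. Next was Ctsk at 0.99 and 1.32 TPM, just under the detection level in replicate 1. Calcr and Ocstamp were at 0 in the gene table. In the rescaled second transcript table, 3 of the 8 passed 1 TPM. There Ocstamp had 2.33 and 2.20 TPM and Ctsk had 2.25 and 1.85 TPM.

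The remaining V0 members covered the ring and the small subunits. Atp6v0b (chromosome 4, 117884326 to 117887333), a proteolipid of the ring, had 187 and 194 TPM, of which 126 and 146 TPM lay on protein-coding transcripts. Atp6v0c, the other ring proteolipid, had 79.2 and 78.4 TPM. Most of that was the processed transcript Atp6v0c-205, with 52.7 and 54.4 TPM, and the coding Atp6v0c-201 had 19.4 and 18.7 TPM. Atp6v0c has annotated pseudogenes and non-whole counts, so its level may include shared reads. Atp6v0e, the small membrane subunit e, had 18.9 and 16.2 TPM, and Atp6v0e2, its paralog known from brain, was listed at 0 in the gene table. The second transcript table placed Atp6v0e2 at 3.94 and 3.19 TPM, nearly all on the retained-intron transcript Atp6v0e2-203, and left Atp6v0e with 86.1% and 91.7% of the family. Summed by subunit, the order in the gene table was a, b, c, d and e. Over protein-coding transcripts only, d (51.2 and 40.9 TPM) stood above c (19.95 and 19.3 TPM), and in the second transcript table their ranges overlapped. Subunit a stood 70.2-fold and 66.4-fold above e, and 19.9-fold and 20.5-fold over protein-coding transcripts only. The accessory subunit Atp6ap1, which aids assembly and sorting of the pump, had 73.8 and 83.1 TPM, and Atp6ap2, the (pro)renin receptor, had 15.3 and 16.8 TPM.

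**Figure D2:**
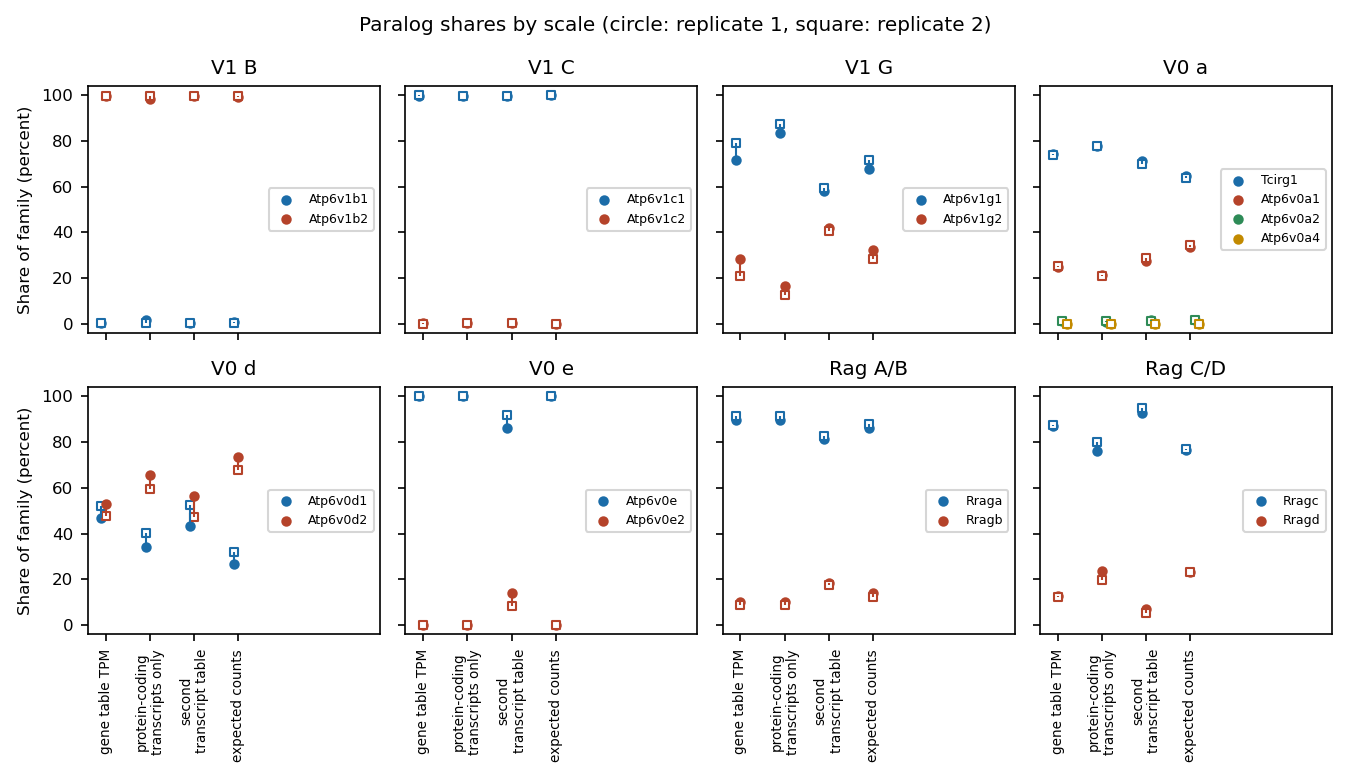
Share of each paralog in the summed level of its subunit family (percent), computed from gene table TPM, protein-coding transcripts only, the second transcript table and expected counts, with a circle for replicate 1, a square for replicate 2 and a line between them. Tcirg1 led subunit a on all 4 scales, from 64.2% to 77.8%. The replicates of Atp6v0d1 and Atp6v0d2 cross in gene table TPM and in the second transcript table.

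Ragulator genes were low except for a pair. Lamtor3 (chromosome 3, 137918506 to 137928900), which forms a heterodimer with Lamtor2, had 53.9 and 60.0 TPM in replicates 1 and 2. Lamtor1 (chromosome 7, 101905904 to 101926675), the lipid-anchored scaffold that holds the complex on the membrane, had 27.9 and 21.5 TPM. Lamtor2 had 2.83 and 4.66 TPM from 10 and 26 counts, Lamtor4 3.84 and 4.52 TPM from 29 and 51 counts, and Lamtor5 3.65 and 3.10 TPM from 19 and 24 counts. The last 3 lay close together, and no order is read among them. Lamtor3 stood 19.0-fold above the lowest in replicate 1, Lamtor2, and 19.3-fold above the lowest in replicate 2, Lamtor5. Of the Lamtor3 level, 74.4% and 73.9% lay on retained-intron transcripts. The coding transcripts gave Lamtor3 13.8 and 15.7 TPM, Lamtor1 13.7 and 10.2 TPM, Lamtor5 3.65 and 3.10 TPM, and Lamtor4 0.390 and 0.370 TPM. The highest over lowest ratio was then 35.4-fold and 42.4-fold, with Lamtor4 lowest. In the second transcript table it was 8.19-fold and 8.44-fold, with Lamtor2 lowest.

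The Rag GTPases work as pairs of RagA or RagB with RagC or RagD. In the first position Rraga, an intronless gene on chromosome 4 from 86575668 to 86577285, had 2.59 and 3.71 TPM, and Rragb had 0.290 and 0.350 TPM from 6 and 11 counts, so Rraga took 90.7 ± 1.02%. In the second position Rragc (chromosome 4, 123917446 to 123936997) had 33.3 and 44.7 TPM and Rragd 4.90 and 6.37 TPM, so Rragc took 87.3 ± 0.250%. The summed RagC and RagD level was 13.3-fold and 12.6-fold above that of RagA and RagB. Over protein-coding transcripts only it was 7.14-fold and 7.49-fold above, and it stood 38.2-fold and 40.0-fold above in the second transcript table. Rragc was the 1 member of 30 whose level in the second transcript table, rescaled to the same protein-coding sum, was at least 2-fold higher in both replicates, at 66.7 and 97.3 TPM, where 5.74% of detected nuclear protein-coding genes were. No member was at least 2-fold lower there, where 0.798% of genes were. Rragc shares reads with other genes and overlaps annotated genes on both strands, so its level is uncertain.

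In mTORC1, the gene level and the coding level gave opposite orders. Rptor, which encodes the substrate-recruiting subunit Raptor (chromosome 11, 119602905 to 119899576), had 61.8 and 49.2 TPM in replicates 1 and 2, and Mtor, the kinase (chromosome 4, 148448611 to 148557683), had 20.6 and 16.1 TPM. Rptor was thus above Mtor by 1.60 on the log2 scale in the gene table. Over protein-coding transcripts only, Rptor had 2.57 and 1.60 TPM and Mtor 19.0 and 14.1 TPM, a log2 ratio of -3.01. The most abundant Rptor transcript was Rptor-203, a retained-intron transcript with 17.8 and 13.3 TPM. Rptor-211, of 33 exons and classed under nonsense-mediated decay, had 6.84 and 6.72 TPM, and the coding Rptor-201, of 34 exons, had 2.57 and 1.05 TPM. Most of the Mtor level was the coding Mtor-202, of 58 exons, with 17.2 and 13.6 TPM. By expected counts, not divided by length, Rptor exceeded Mtor by 0.35 on the log2 scale, with 1972 and 2269 counts against 1527 and 1806. Mlst8, the small subunit that stabilises the kinase domain, had 10.3 and 10.6 TPM.

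**Figure D3:**
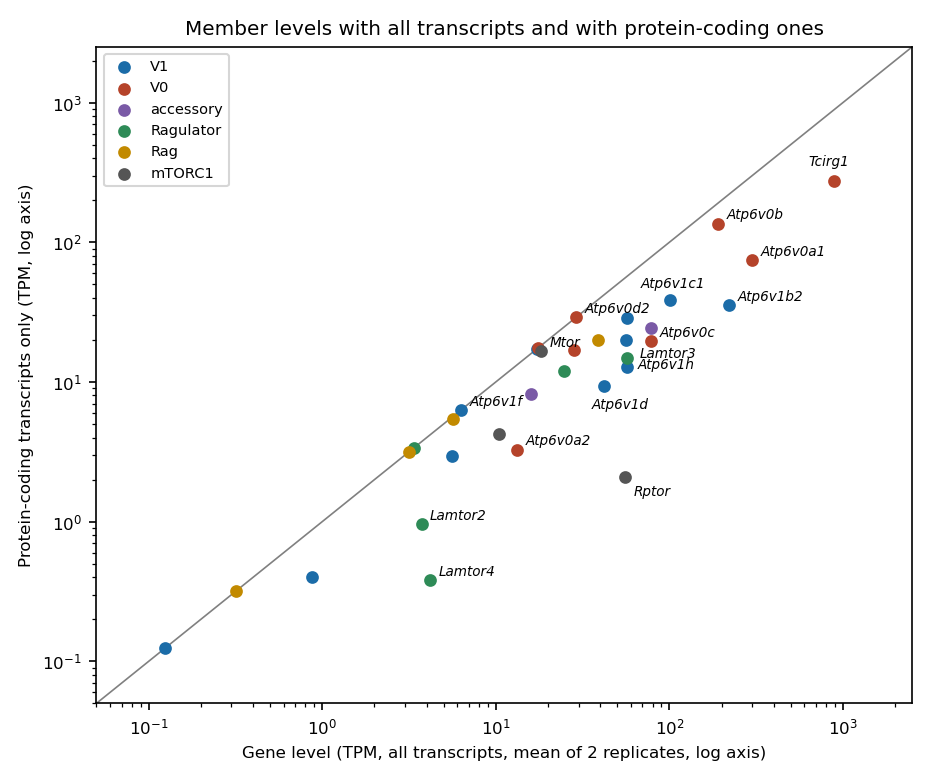
Mean level of each member with a count, over all its transcripts (TPM, log axis) and over its protein-coding transcripts only (TPM, log axis), with the line of equal values and colours for the complexes. Rptor, Lamtor4, Tcirg1, Atp6v1b2 and Atp6v0a1 lie well below the line, and Mtor, Atp6v0d2 and Atp6v1f lie on or near it.

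Transcript classes differed widely between the members. Retained-intron shares were read for members with such an annotated transcript and at least 100 counts in each replicate, which left 18. Of these, 12 had 50% or more of their TPM on retained-intron transcripts in the mean of the replicates, where 48.1% of 5042 genes did. The median share was 57.3 ± 5.01% in the members and 48.9 ± 0.566% in those genes. By expected counts the median of the members was 42.0%, and no median of those genes is given on that scale. The highest shares of TPM were 84.2% and 83.8% in Atp6v1b2, 80.4% and 74.5% in Atp6v1h and 78.2% and 78.1% in Rptor, in replicates 1 and 2. The lowest were 8.98% and 9.62% in Rragc and 7.49% and 12.6% in Mtor. Protein-coding transcripts made up less than 50% of the level in 14 of 24 members with 100 counts, where 49.4% of 7264 genes did.

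Atp6v1b2 had the highest share of TPM, and 53.4% and 54.3% by expected counts, where Atp6v1h had 90.6% and 87.8%. Its leading transcript was Atp6v1b2-203, of 2 exons and 507 bases, with 113 and 70.9 TPM, and this transcript accounts for most of the difference between the replicates. The coding Atp6v1b2-201 had 39.8 and 30.9 TPM, and Atp6v1b2-202, which holds the intron printed above, had 31.0 and 36.3 TPM. Atp6v0a1 and Atp6v0c have no annotated retained-intron transcript, and processed transcripts took 75.5% and 74.2% of Atp6v0a1 and 74.8% and 75.4% of Atp6v0c. The leading one, Atp6v0a1-209 of 16 exons, had 92.7 and 85.8 TPM beside 76.4 and 67.9 TPM for the coding Atp6v0a1-202. Atp6v1g1, Atp6v0d2 and Atp6v0e were wholly on protein-coding transcripts, the sole class annotated for them. Over the 30 detected members, gene level and number of annotated transcripts had a Spearman rho of 0.64, and 0.33 for the protein-coding level. With the number of annotated retained-intron transcripts these were 0.46 and 0.14, and with genomic span 0.35 and 0.23. The members share libraries and annotation and are not independent replicates, so these values are descriptions.

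**Figure D4:**
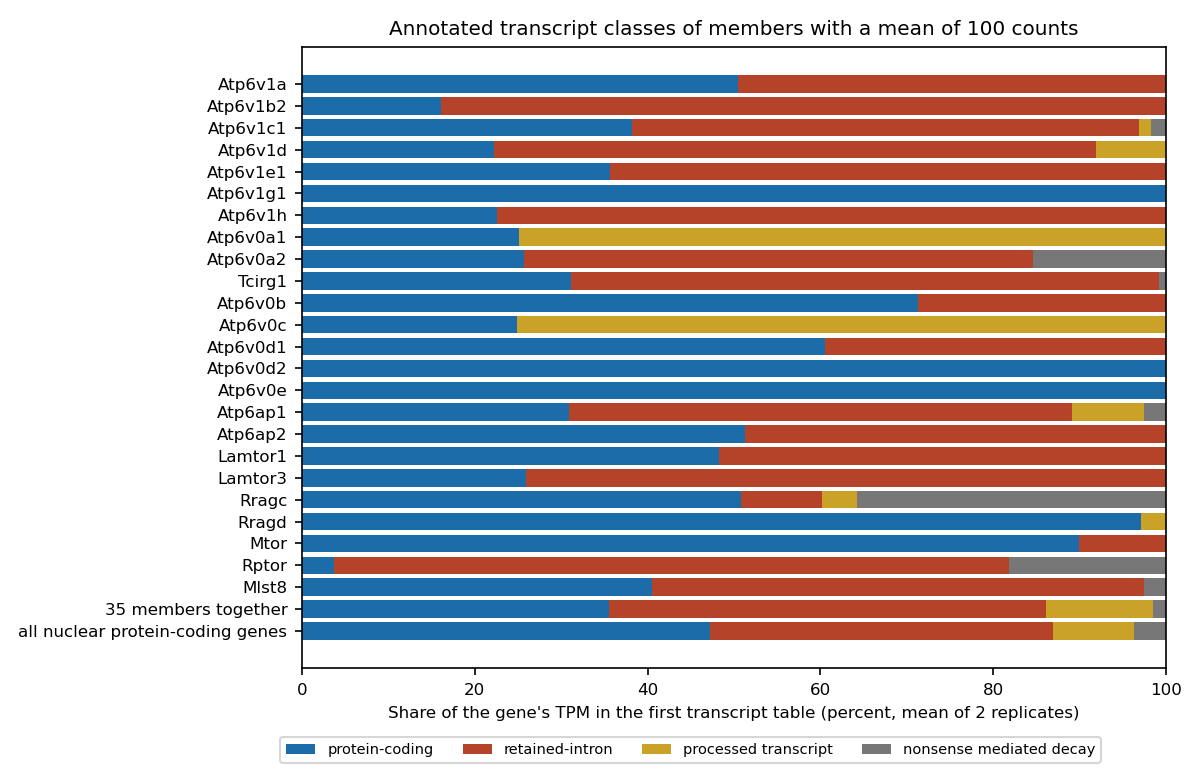
Share of TPM in the first transcript table (percent, mean of 2 replicates) on protein-coding, retained-intron, processed and nonsense-mediated decay transcripts, for the 24 members with a mean of 100 counts, all 35 members together and all nuclear protein-coding genes. Members together had 35.5% on protein-coding and 50.6% on retained-intron transcripts, and all genes 47.2% and 39.7%. These pooled shares are of summed TPM, so abundant genes such as Tcirg1 weigh most in them.

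Between the replicates most members lay within 2-fold. The log2 ratio of replicate 2 over replicate 1, on expected counts scaled by TMM with 0.5 added, had a median of 0.07 over the 31 members with a mean of 10 counts and 0.02 over 11424 nuclear protein-coding genes. Scaling by total counts raised the median of all genes by 0.13 and that of the members to 0.19. Of the 31, 1 member, Atp6v1b1, passed 2-fold, at -1.43 from 14 and 7 counts, where 1.86% of genes did. Lamtor2 had the highest ratio, 0.85, also on few counts. Among the members with a mean of 50 counts the ratio ran from -0.41 in Atp6v0d2, with 785 and 836 counts, to 0.59 in Rraga, with 37 and 79 counts, and next to that stood Rragc at 0.41, with 789 and 1483 counts. With TMM scaling, 53.6% of the 11424 genes lay above 0, and no such share is given for the other scalings. All 3 Rag members in this set lay above 0, as did 8 of 10 V1 members, 2 of 8 V0 members (3 with DESeq2 size factors and 5 with total counts), 2 of 2 accessory subunits, 3 of 5 Ragulator members and 1 of 3 mTORC1 members. RNA input cannot be told apart from the replicate here.

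**Figure D5:**
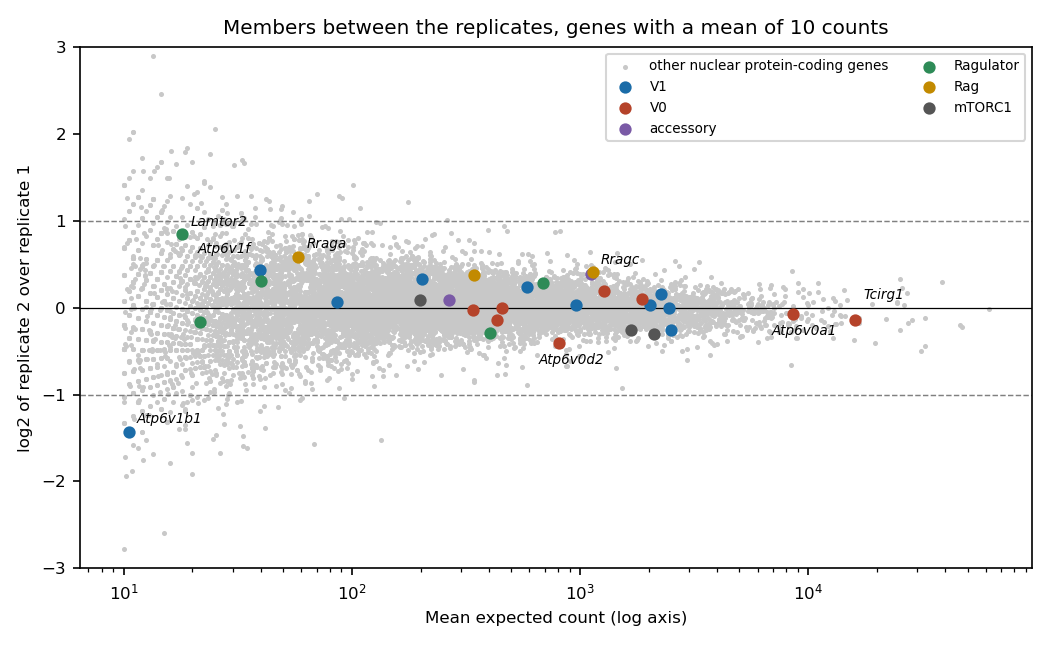
Log2 ratio of replicate 2 over replicate 1 against the mean expected count (log axis) for nuclear protein-coding genes with a mean of 10 counts (grey) and the 31 members among them (coloured by complex), with dashed lines at 2-fold. Atp6v1b1 lies outside the lines at -1.43 and 9 other genes lie beyond the plotted range.

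The promoters of the members were searched for the E-box core CACGTG, the letters bound by the TFE3 and TFEB family of lysosomal gene regulators, since both proteins are mTORC1 substrates and their genes were detected here (Tfe3 at 34.4 ± 2.23 TPM and Tfeb at 34.7 ± 6.90 TPM). RefSeq windows of 300 bases on GRCm38.p6, from 250 before to 50 after the gene start, were found for 28 of the 35 members. Atp6v1b2, Atp6v1c1, Atp6v1g1, Atp6v1h, Atp6v0a2, Atp6v0d2 and Lamtor3 were not searched. CACGTG, which reads the same on both strands, occurs in 8 of the 28 (28.6%) and in 8.09% of 27025 genes with such a window. Those genes were not limited to protein-coding ones, unlike the other backgrounds given here. The 8 are Atp6v0b, Atp6v1a, Atp6v0d1, Atp6v0e, Lamtor1, Lamtor4, Rragb and Rragc. The longer TCACGTGA, which contains it, occurs in 3 members, Atp6v0d1, Atp6v1a and Atp6v0e, and in 1.12% of genes. A match is a description of letters and not of binding. The 3 windows that hold the core more than once are printed, upstream of the annotated gene and with the core in capitals, because their genes span the range of levels, from 190.5 TPM in Atp6v0b through 4.18 TPM in Lamtor4 to 0.320 TPM in Rragb. They are chr4:117887334-117887579 on the minus strand, chr5:138255232-138255481 on the plus strand and chrX:153139708-153139957 on the plus strand. The third core of Rragb lies across the gene start and is not in the printed run.
Atp6v0b: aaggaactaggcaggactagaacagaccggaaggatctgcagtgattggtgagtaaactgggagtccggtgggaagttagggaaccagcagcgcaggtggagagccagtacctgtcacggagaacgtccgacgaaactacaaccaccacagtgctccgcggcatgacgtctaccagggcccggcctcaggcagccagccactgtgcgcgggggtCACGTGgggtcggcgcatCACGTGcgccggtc
Lamtor4: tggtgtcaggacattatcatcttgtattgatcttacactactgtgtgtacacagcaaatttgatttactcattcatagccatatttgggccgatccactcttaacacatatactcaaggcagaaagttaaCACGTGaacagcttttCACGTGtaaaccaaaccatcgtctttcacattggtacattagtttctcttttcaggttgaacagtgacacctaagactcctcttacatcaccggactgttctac
Rragb: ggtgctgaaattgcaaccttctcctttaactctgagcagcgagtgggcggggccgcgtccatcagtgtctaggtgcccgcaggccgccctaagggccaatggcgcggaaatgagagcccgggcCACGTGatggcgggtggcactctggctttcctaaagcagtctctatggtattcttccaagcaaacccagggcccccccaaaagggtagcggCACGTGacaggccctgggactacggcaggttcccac

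The window of Tcirg1, the most abundant member, held no CACGTG at any of its 3 RefSeq starts, and the 8 members with the core ranged from 0.320 to 190.5 TPM.

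Other genes of the pathway were read as lists. Each list median is over the mean levels of its genes, while the member median of 19.6 TPM is the mean of the medians of the 2 replicates. Of 12 genes of V-ATPase assembly and regulation, 11 were detected, with a median of 19.9 TPM, near that of the members. The highest were Dmxl1, Wdr7 and Dmxl2, which belong to the RAVE-like complexes that join V1 to V0, at 107 ± 4.80, 77.5 ± 4.41 and 69.5 ± 0.0212 TPM, and the lowest were Vma21 at 3.91 ± 0.219 TPM and Tldc2 at 0.130 ± 0.184 TPM. Of 4 further V-ATPase genes, Rnasek was detected, at 2.09 and 7.70 TPM, and Atp6v1e2, Atp6v1g3 and Atp6ap1l had no count. All 11 genes of GATOR1, GATOR2 and KICSTOR, which set the nucleotide state of RagA and RagB, were detected, with a median of 9.73 TPM. Of 13 amino acid sensors and Rag regulators, 10 were detected, with a median of 13.1 TPM. In that list Fnip2 (349 ± 0.127 TPM), Flcn (106 ± 0.134 TPM) and Fnip1 (62.5 ± 2.71 TPM) were highest. Folliculin, encoded by Flcn, and its FNIP partners act on RagC and RagD.

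Downstream and around the platform, all 5 genes of the TSC complex and Rheb were detected (median 23.9 TPM), as were 8 of 9 further mTOR complex genes (10.8 TPM), 9 of 10 mTORC1 substrates (22.7 TPM) and 8 of 8 BORC genes (7.16 TPM). Among the substrates Ulk1, Tfeb and Tfe3 were highest, at 35.9, 34.7 and 34.4 TPM with overlapping ranges. The 35 genes of the lysosomal hydrolase list and 15 lysosomal membrane genes, all detected, had medians of 43.3 and 57.8 TPM, above the 19.6 TPM of the members. Psap, the saposin precursor and not itself a hydrolase, led the hydrolase list at 931 and 739 TPM, a range that overlaps that of Tcirg1. Next was Ctsb at 635 and 509 TPM, below both values of Tcirg1. Tpcn2, Clcn7 and Cln3 led the membrane genes, with Tpcn2 at 269 and 185 TPM, Clcn7 at 144 and 145 TPM and Cln3 at 134 and 128 TPM. The mitochondrial F-type ATP synthase, the other rotary ATPase of these cells, had 16 of 17 genes detected at a median of 9.51 TPM. These medians are descriptions and were not tested against each other.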

How the data were processed

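Chromatin-fraction RNA of 2 libraries of 1 group was analysed from 1 table of genes and 2 of transcripts for each library. Per the deposited notes, an alignment to transcripts (mm10, GENCODE M21) gave the table of genes and the first table of transcripts, while the second one was made from reads and an index. Column names follow RSEM and kallisto layouts, and neither tools nor versions are given in the sources used here. In the deposited tables, expected counts are estimates in which ambiguous reads are shared out, and the deposited TPM divides them by effective length. The sum of TPM is fixed per table, so the second table was also rescaled to the protein-coding sum of the gene table. The labels do not say whether the libraries keep strand, so members cannot be told apart from genes that overlap them on the opposite strand. This touches Atp6v1b2, Atp6v1c2, Atp6v1e1, Atp6v1g2, Atp6v1h, Atp6v0a2, Atp6v0a4, Atp6v0b, Lamtor1, Rragc, Rragd, Mtor, Rptor and Mlst8. Genes on the same strand overlap Atp6v1e1, Atp6v0a1, Atp6v0a4, Rragc, Mtor and Rptor, and stranded libraries would not separate these. Counts of 5 members were not whole (tolerance 0.005) and include shared reads: Atp6v1g2, Atp6v0a2, Atp6v0c, Lamtor1 and Rragc.

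Levels are means ± SD of 2 replicates. Expected counts were rounded for TMM factors (edgeR 4.0.16) and DESeq2 1.42.0 size factors in R 4.3.3, and no differential test was run. The ratio step was tested on simulated data. Python 3.11.15 with pandas 2.3.3 and scipy 1.17.1 did the rest. Sequences came from GENCODE M21 transcripts and RefSeq promoters. All 35 members are named, and of each other list up to 3 highest and 2 lowest genes. Marker genes Itgb3, Ctsk, Calcr, Ocstamp, Cd3d and Pecam1 and transcripts with a printed intron were also named, after values were seen. The members and lists were chosen with earlier results of these data known. Floors are for counting error alone, as no molecular identifiers are mentioned and PCR copies are not independent.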

Additional observations from a re-analysis of the deposited data

How the results depend on the processing

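No paired analysis was possible because there is 1 group. Leaving out each replicate in turn kept the leader of every family except subunit d, where Atp6v0d2 held 47.8% without replicate 1 and 53.1% without replicate 2. Over protein-coding transcripts only, the leading share was 99.0% for subunit B, 99.7% for C, 85.3% for G, 77.8% for a, 62.7% for d and 78.2% for Rragc. By expected counts it was 69.7% for G, 64.2% for a, 70.6% for Atp6v0d2, 86.9% for Rraga and 76.7% for Rragc. In the second transcript table it was 99.6% for C, 58.9% for G, 70.4% for a and 51.9% for Atp6v0d2, which held 47.3% in replicate 2. There it was also 88.9% for Atp6v0e, 82.1% for Rraga and 93.9% for Rragc. Members detected ranged from 28 to 33 over all settings, with the share of all genes given only for 1 TPM in the gene table. The median member level was 10.6 TPM over protein-coding transcripts and 24.7 TPM in the second table, and the median retained-intron share was 42.0% by expected counts and 51.8% in the second table. The median ratio of the replicates was 0.19 with total counts. Members past 2-fold numbered 2 with no filter (Atp6v1c2 added, on 2 counts and 1 count) and 0 with a mean of 50 counts, with a prior of 5 or in the second table. No share of all genes is given at these other settings. Rptor over Mtor was -3.01 on the log2 scale over protein-coding transcripts, 1.38 in the second table and 0.35 by expected counts. The highest over lowest subunit ratio was 6.32-fold in V1 and 20.2-fold in V0 over protein-coding transcripts, and 39.1-fold in V0 in the second table. The rescaled second table, the Rptor over Mtor ratio, the subunit ratios and, for the count past 2-fold, the prior of 5 were chosen after seeing the data. The causes of these shifts were not tested. Atp6v1b1, Atp6v1c2, Lamtor2, Lamtor5 and Rragb rest on few counts.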
